A study of Mus musculus with 2 samples.

Results

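Promoter peaks of CHD2 whose summit lay just outside the gene, on the upstream side of its 5′ end, numbered 1648 of the 8282 peaks of the optimal list (19.9%, exact 95% interval 19 to 20.8). A peak was taken where its summit lay 1 to 1000 bp upstream of the nearest protein-coding 5′ end, in the direction of the gene. It was left out where another protein-coding gene started on the opposite strand within 1 kb upstream of that gene. These 1648 peaks were 57.0% of the 2893 promoter peaks, those with a summit within 1 kb of a protein-coding 5′ end. Another 1086 promoter peaks (37.5%) had the summit inside the gene and 159 (5.50%) lay upstream of a divergent protein-coding pair. The upstream peaks lay at 1566 genes, 80 of which (5.11%) had more than 1 of them.

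CHD2 is a chromodomain helicase of the family of ATP-dependent enzymes that move or assemble nucleosomes, and it is known to act at active promoters. The stretch upstream of a transcription start is the core and proximal promoter, where general factors and sequence-specific activators bind and where nucleosomes are often depleted. NF-Y, a histone-fold trimer, binds the CCAAT box there, and BANP binds CG-rich palindromes of the TCTCGCGA type when these are not methylated.

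CHD2 was precipitated from ES-E14, an established male mouse embryonic stem cell line of strain 129/Ola, with an anti-CHD2 antibody. There was 1 group of 2 biological replicates with no treatment and no genotype contrast, so no test between conditions was possible. What is compared below are classes of peaks within a list, and the main values are repeated in both replicates' own lists to show the spread. The labels describe embryonic stem cells. Of 21 fibroblast genes, the markers of feeder cells, none carried an upstream peak in the optimal list and 1 did in replicate 1 alone. In the optimal list 1 of the 21 had a promoter peak with the summit inside the gene only. The exact interval of their upstream share, 0 to 16.1%, includes the 7.27% of all protein-coding genes. The presence of feeder cells was not tested. The signal of a peak is the authors' own value, without a stated normalization, and the read depth is unknown. The replicates' lists have lower values at the same peaks (medians of 23 and 21.7 against 41.9), so signals are compared only within a list, and between replicates only by rank.

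The sequences at the strongest summits showed short words of 2 kinds. Each line gives the 101 bases centred on the optimal summit, 5′ to 3′ in the direction of the gene, from RefSeq promoter sequence on GRCm38.p6. Capitals mark matches to TCTCGCGA or CCAAT on either strand. The first set shows strong peaks with TCTCGCGA and without CCAAT, of which Gdi2, a regulator gene of Rab GTPases, was chosen after its values were seen. In Sec23ip and Gdi2 copies on both strands overlap to a longer palindrome, whereas Eif5, Cct8 and Eif4a3 hold 1 copy.
Sec23ip (chr7:128744752-128744852, + strand): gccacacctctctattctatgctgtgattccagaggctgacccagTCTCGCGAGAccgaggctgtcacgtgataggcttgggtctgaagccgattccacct
Eif5 (chr12:111537918-111538018, + strand): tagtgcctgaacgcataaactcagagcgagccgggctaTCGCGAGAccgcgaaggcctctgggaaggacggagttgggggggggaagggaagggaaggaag
Cct8 (chr16:87495921-87496021, - strand): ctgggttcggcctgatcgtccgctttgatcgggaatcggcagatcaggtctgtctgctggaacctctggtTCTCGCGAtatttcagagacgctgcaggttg
Eif4a3 (chr11:119300111-119300211, - strand): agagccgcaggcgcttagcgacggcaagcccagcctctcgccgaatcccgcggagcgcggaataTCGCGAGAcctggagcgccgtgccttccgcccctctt
Gdi2 (chr13:3537903-3538003, + strand): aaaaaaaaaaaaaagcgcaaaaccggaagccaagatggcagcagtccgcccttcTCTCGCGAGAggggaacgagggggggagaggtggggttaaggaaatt
The next set shows the strongest peaks with CCAAT and without TCTCGCGA, chosen after their values were seen. Atp5b holds 3 copies in both orientations, and Flad1 holds a pair in the same orientation.
Atp5b (chr10:128083096-128083196, + strand): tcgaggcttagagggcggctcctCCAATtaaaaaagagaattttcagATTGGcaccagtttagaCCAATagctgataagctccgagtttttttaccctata
Flad1 (chr3:89411893-89411993, - strand): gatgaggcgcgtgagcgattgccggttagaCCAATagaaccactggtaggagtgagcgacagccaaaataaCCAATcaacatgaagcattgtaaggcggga
Dnm2 (chr9:21424771-21424871, + strand): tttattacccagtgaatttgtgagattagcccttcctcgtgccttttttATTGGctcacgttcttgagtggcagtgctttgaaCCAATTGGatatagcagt
Ngdn (chr14:55015243-55015343, + strand): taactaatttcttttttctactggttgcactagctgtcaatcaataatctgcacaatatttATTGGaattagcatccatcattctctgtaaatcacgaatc
Nfatc2ip (chr7:126396823-126396923, - strand): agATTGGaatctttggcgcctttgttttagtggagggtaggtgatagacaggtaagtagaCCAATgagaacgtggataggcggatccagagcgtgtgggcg
Rbm39, which encodes a splicing factor, and Snrpg, which encodes an Sm core protein of spliceosomal snRNPs, held both words and were also chosen after their values were seen.
Rbm39 (chr2:156180248-156180348, - strand): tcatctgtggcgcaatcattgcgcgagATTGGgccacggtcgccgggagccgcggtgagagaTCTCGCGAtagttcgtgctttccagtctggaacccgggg
Snrpg (chr6:86371384-86371484, + strand): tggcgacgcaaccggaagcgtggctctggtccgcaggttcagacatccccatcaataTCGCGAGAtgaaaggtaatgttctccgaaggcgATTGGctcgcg
Slc35b4, a nucleotide sugar transporter gene, and Nupl1, a nucleoporin gene, held neither despite signals of 297 and 261, and were likewise chosen with their values known.
Slc35b4 (chr6:34177091-34177191, - strand): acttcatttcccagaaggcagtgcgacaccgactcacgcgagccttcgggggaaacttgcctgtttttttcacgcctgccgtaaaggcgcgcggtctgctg
Nupl1 (chr14:60251582-60251682, - strand): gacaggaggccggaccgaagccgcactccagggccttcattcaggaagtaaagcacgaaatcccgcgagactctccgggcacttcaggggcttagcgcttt

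Upstream summits crowded close to the 5′ end. The median offset was -94.5 bp, with quartiles of -201 and -50 bp. A summit lay within 100 bp of the 5′ end in 858 peaks (52.1%) and within 250 bp in 1316 (79.9%). Only 136 (8.25%) lay more than 500 bp upstream. Peaks with the summit inside the gene spread further, with a median of 183 bp and 36.4% within 100 bp. When the members were drawn from 1 replicate's own 8282 strongest peaks, the median offset was -100 bp in replicate 1 and -92 bp in replicate 2. Against each replicate's full list of 300000 peaks, summits of the same peak lay a median of 24 bp apart. Of 1608 upstream peaks matched in both full lists, 1457 (90.6%) had an upstream summit in both. Only 1162 upstream peaks overlapped the strongest 8282 of both replicates. The outer 5′ end of a gene is not always the start in use. With the starts listed in the RefSeq promoter table in place of the outer 5′ end, 1216 of the 1566 genes (77.7%) again had an upstream peak. That table lists only 1336 of the 1566 genes, and the others could not be kept whatever their start. For 1404 upstream peaks the gene had a listed start, and the nearest one was the outer 5′ end in 901 (64.2%). For the rest the offset was measured from an end other than the nearest listed start.

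**Figure D1:**
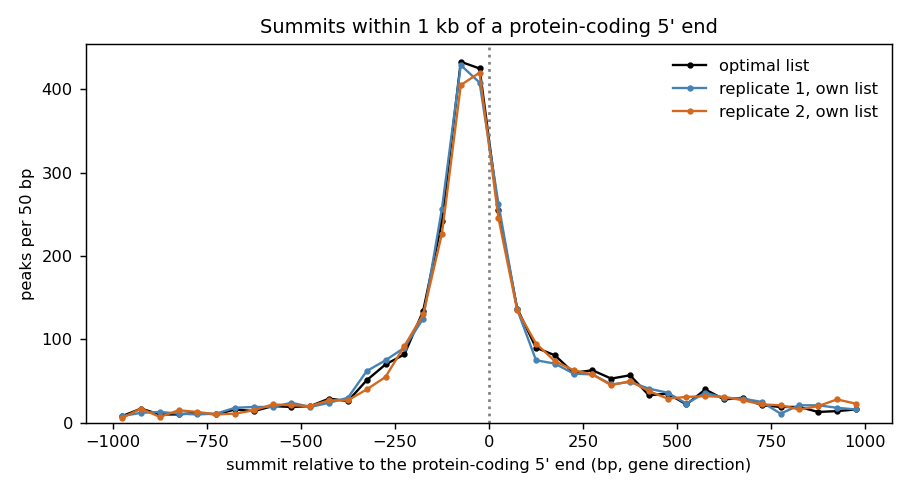
Number of promoter peak summits per 50 bp (y axis) against the distance of the summit from the protein-coding 5′ end in base pairs (x axis, negative values upstream), for the optimal list (black) and the strongest peaks of each replicate's own list (blue and brown). All 3 lines rise steeply in the last 200 bp before the 5′ end and drop steeply past it, with a longer tail inside the gene.

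At the limits of the class the offset split near-identical cases. Just inside the limit at the 5′ end lay Atraid, Jtb and Clpb, each with a summit at -1 bp and signals of 142, 51.5 and 27.4. Cfap298, Abl1 and Zfp414 had the summit on the 5′ end itself (offset 0) and signals of 13, 101 and 243, and were not members. The farthest members were at Lekr1 and Eno3 (-999 bp, signals 23.2 and 27.0) and Ndufa4l2 (-998 bp, 16), whereas Gtf3c6 and Slc25a36 (-1001 bp, 30.2 and 19.2) and Lamb2 (-1003 bp, 40.4) fell just outside.

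Upstream peaks carried more CHD2 signal than the list as a whole. Their median signal was 41.9, with quartiles of 26.8 and 82.4, against 29.6 over all optimal peaks and 35.5 for peaks with the summit inside the gene. The 159 peaks of divergent pairs had a median of 53.9. The ratio of the upstream to the inside median was 1.18 in the optimal list, and 1.17 and 1.16 for the same peaks in the lists of replicates 1 and 2. It was 1.06 when the peaks were drawn anew from the strongest of replicate 1 alone, and 0.967 within the stronger 4141 peaks of the optimal list, so the order of both classes did not hold among strong peaks. Of the 829 strongest optimal peaks, 336 (40.5%) were upstream peaks and 211 (25.5%) lay inside the gene. Of the 829 weakest, 98 (11.8%) were upstream and 99 (11.9%) inside.

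In the optimal list signal was highest within 150 bp of the 5′ end and declined farther out. The median was 46.6 at offsets of -50 to -1 bp, 50.1 at -100 to -51 bp and 50.2 at -150 to -101 bp. It was 43.6 from -200 to -151 bp, 36.7 from -250 to -201 bp, 26.9 from -500 to -251 bp and 25.2 beyond. In replicate 1 the corresponding medians went from 23.8 next to the 5′ end to 13.6 in the outermost bin, and in replicate 2 from 24.0 to 15.1. Inside the gene the median at mirrored distances was 45.7 in the first 50 bp and 41.5 in the next 50, and 32.2 in the 50 bp after that. At the distances mirroring -500 to -251 bp the inside peaks had a median of 33.4, above the 26.9 of upstream peaks. This order did not recur in replicate 1, where inside peaks had 19 and upstream peaks 19.5, and it did in replicate 2 (17.7 and 16.5). Beyond 500 bp inside peaks had the higher median in the optimal list (30.7 and 25.2) and in both replicates (16.5 and 13.6, 17.4 and 15.1). The mm9 list, on its own scale, showed no such steady decline of upstream medians up to 500 bp. In the same bins, from the 5′ end outward, they were 79.4, 69.1, 74, 81, 66.2 and 76.6, and 52.1 beyond 500 bp.

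Upstream peaks recurred more often than the list as a whole. The conservative list, the stricter of the deposited lists that both derive from the irreproducible discovery rate (IDR), overlapped 1377 of them (83.6%), against 72.4% of all optimal peaks and 77.8% of inside peaks. Among the 8282 strongest peaks of replicate 1 they were overlapped in 84.1% of cases (all optimal peaks 70.7%), and among those of replicate 2 in 81.3% (all optimal peaks 72%). The 159 peaks of divergent pairs recurred more than upstream peaks by each of these measures, with 94.3%, 93.1% and 91.8%. Both replicates' strongest peaks held 1162 (70.5%), against 52.9% over all, and 85 (5.16%) were in neither. Across the 1608 upstream peaks matched in both replicates' full lists Spearman's rho of signal was 0.758. It was 0.799 for 158 peaks of divergent pairs, 0.714 for 1063 inside peaks and 0.543 for 7977 peaks of all classes. These peaks share the libraries, and the higher signal of upstream peaks moved with the recurrence. Its part was not tested. The largest rank differences between replicates were at Mgst3 (signal 3.73 in replicate 1 and 17.7 in replicate 2), Arl6ip1 (17.5 and 2.89) and Ybx2 (3.75 and 15.7). None of these 3 was in the conservative list.

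The CCAAT box was the most frequent word at upstream summits among the 14 searched. RefSeq promoter sequence covered 50 bp on both sides of the summit for 988 of the 1648 peaks, of which 13 lay beyond 250 bp from the outer 5′ end. CCAAT was found, on either strand, in 584 of them (59.1%, 56.0 to 62.2). All 17492 protein-coding promoters held it in 22.4% of windows of the same length centred 68 bp upstream, the median offset of these summits. At the replicates' own summits the share was 60.9% and 61.9%. The mm9 list, for which the whole genome sequence could be read, gave 705 of 1258 upstream peaks (56.0%), against 11.4% and 8.82% in windows 500 bp upstream and downstream of the same summits. It gave 30.1% of 548 inside peaks and 28.7% of 1870 peaks more than 10 kb from a 5′ end. The intervals of upstream and inside peaks in the mm9 list (53.2 to 58.8 and 26.3 to 34.1) did not overlap. They cover counting error only.

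TCTCGCGA was found less often than CCAAT but stood at the strongest peaks. It was in 88 of the 988 windows (8.91%, 7.20 to 10.9), against 0.869% of all promoters and 0.288% of the 15275 promoters without a promoter peak. The word overlaps its own reverse complement, and in 43 of the 88 windows (48.9%) copies on both strands formed 1 longer palindrome. Replicate summits gave 9.69% and 9.39%. In the mm9 list it was in 170 of 1258 (13.5%), in none 500 bp upstream (which allows a share of up to 0.238%) and in 0.159% 500 bp downstream. Inside peaks did not fall below upstream peaks for this word, with 17.9% of 548.

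Both words lay close to the summit. In the windows with CCAAT the nearest copy had a median distance of 12 bp and lay within 25 bp in 80.5%. For TCTCGCGA the median was 12.5 bp and the share within 25 bp 89.8%. The GC box GGGCGG, the site of Sp and Klf factors, was in 30.7% of the summit windows, near the 31.4% of all promoters, and its nearest copy lay a median of 23.5 bp away. The ETS site CCGGAAG was in 9.92% against 5.07%. CCAAT ran along the strand of the gene in 533 of 937 matches (56.9%, 53.6 to 60.1) and TCTCGCGA in 70 of 143 (49%).

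**Figure D2:**
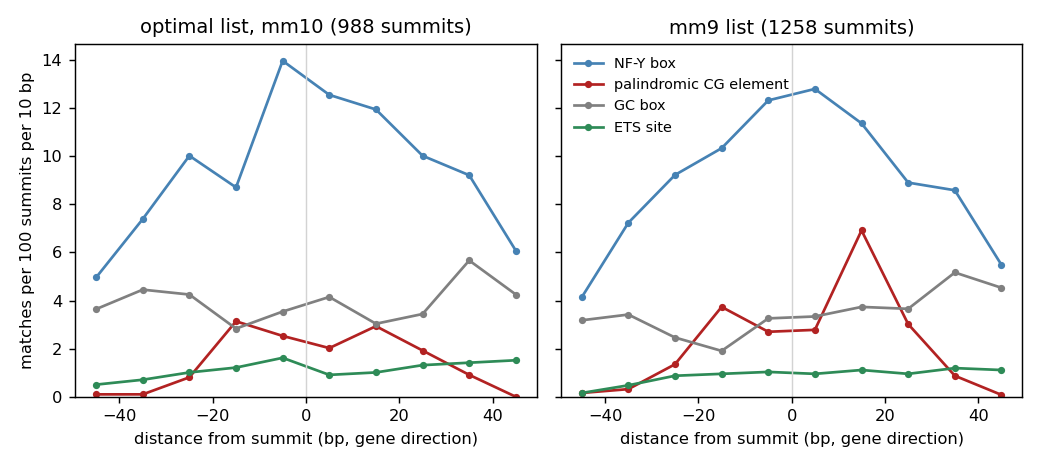
Matches per 100 summits in steps of 10 bp (y axis) against the distance from the summit in base pairs (x axis, gene direction) for 988 upstream peaks of the optimal list (left) and 1258 of the mm9 list (right). The NF-Y box (CCAAT) is highest near the summit, the palindromic CG element (TCTCGCGA) falls to near 0 beyond 40 bp, and the GC box and the ETS site show no such centre.

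Signal split sharply by the word at the summit. The 78 upstream peaks with TCTCGCGA alone had a median signal of 238 (quartiles 171 and 314), and the 10 with both words had 220. The 574 with CCAAT alone had 49.3 (33.2 and 82.6) and the 326 with neither had 37.6 (26.2 and 64.8). The order recurred in both replicates: TCTCGCGA alone gave medians of 128 and 112, CCAAT alone 24.1 and 26.3, and neither 20.7 and 18.8. With TCTCGCGA the median was 5.17 times that without in the optimal list, and 5.50 and 4.76 times in replicates 1 and 2. With CCAAT it was 1.06 times that without, and in the replicates 0.961 and 1.17 times, so the replicates differed in direction. Medians in the mm9 list were 310 for TCTCGCGA alone, 69.2 for CCAAT alone and 52.1 for neither.

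**Figure D3:**
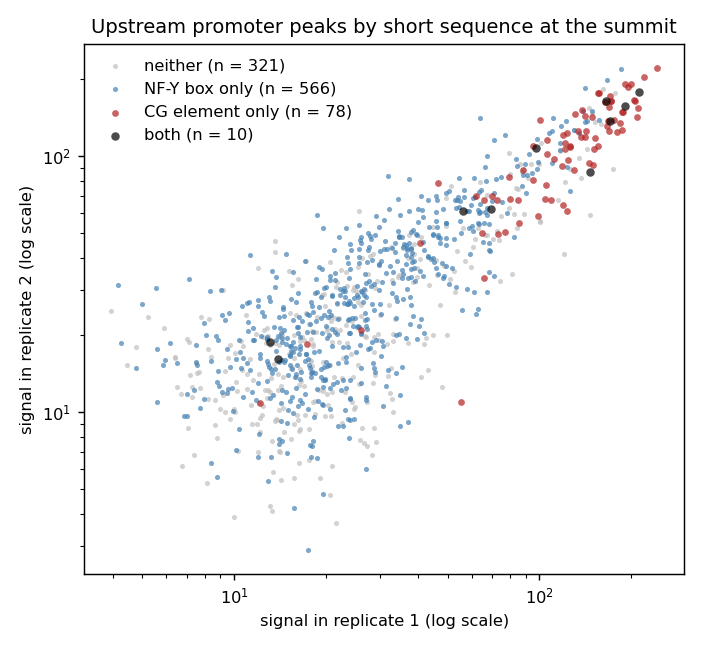
Signal in replicate 1 (x axis, log scale) against replicate 2 (y axis, log scale) for upstream peaks matched in both replicates' full lists. Each point is 1 peak coloured by the words within 50 bp of its summit. The 78 peaks with the palindromic CG element alone (red) lie mostly at the upper right, and the 566 with the NF-Y box alone (blue) and 321 with neither (grey) fill the middle and lower left.

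By rank the words changed places. Of the 50 strongest of the 988 windows, 36 (72%) held TCTCGCGA and 12 (24%) held CCAAT. In the windows ranked 201 to 400, 3 of 200 (1.5%) held TCTCGCGA and 150 (75%) held CCAAT. Among the weakest 288 the counts were 2 (0.694%) and 146 (50.7%). Peaks with TCTCGCGA alone were also narrower, with a median width of 271 bp against 360 bp for CCAAT alone. Their summits in both replicates lay closer together, with a median of 9 bp against 20 bp. Their median offset was -46.5 bp, against -71 bp for CCAAT alone. All 78 overlapped the conservative list. Width, summit distance and overlap were not compared at equal signal. The strongest peaks with CCAAT alone were narrower than 360 bp too: Atp5b 309, Flad1 285, Dnm2 290, Ngdn 311 and Nfatc2ip 298 bp. A width of 360 bp was also the median of peaks with neither word, of inside peaks and of all optimal peaks. Weaker upstream peaks such as those at Jtb and Clpb were exactly that wide. Whether 360 bp is a set width of the list was not tested.

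The words varied with the distance from the 5′ end. In the mm9 list CCAAT was in 51.5% of the 291 upstream summits nearest the 5′ end (-50 to -1 bp), in 64.7% of 385 and 65.8% of 225 in the following 50 bp steps, and in 50% of 108 from -200 to -151 bp. Beyond that the share was 39.6% to 45.5%. TCTCGCGA was in 20.3% next to the 5′ end, 12.7% and 8% in the following 2 steps, 11.1% of 108 from -200 to -151 bp and 13.9% of 72 from -250 to -201 bp. It rose to 21 of 111 (18.9%, 12.1 to 27.5) from -500 to -251 bp and was in 1 of 66 (1.52%) farther out, so its share followed no single trend with distance. These shares come from 1 list, with no replicate values.

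Neighbouring CCAAT boxes kept particular distances. In the mm9 list, 285 neighbouring pairs within the 101 bp windows of upstream summits had the same orientation, and 100 of them (35.1%, 29.6 to 40.9) were 30 to 32 bp apart and 54 (18.9%) 40 to 42 bp apart. Only 5 (1.75%) were 35 to 37 bp and 5 were 45 to 47 bp apart. Pairs in opposite orientation were fewer (137), with 2 at 30 to 32 bp and 14 (10.2%) at 35 to 37 bp. On mm10 the pairs with the same orientation gave 71 of 223 (31.8%) at 30 to 32 bp and 4 (1.79%) at 35 to 37 bp. Inside peaks of the mm9 list had these distances too. Of their 61 pairs with the same orientation, 16 (26.2%) were 30 to 32 bp, 19 (31.1%) 40 to 42 bp and 1 (1.64%) 35 to 37 bp apart. Promoters without a promoter peak had the same distances less sharply, with 36 of 265 (13.6%, 9.70 to 18.3) at 30 to 32 bp and 14 (5.28%) at 35 to 37 bp. These distances were looked at after the matches had been seen.

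**Figure D4:**
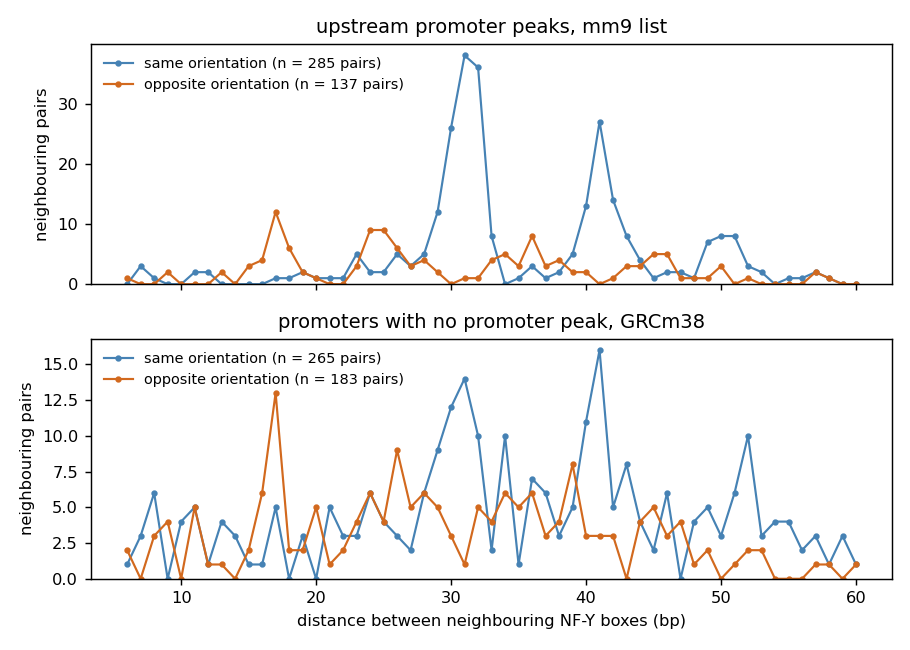
Number of neighbouring NF-Y box pairs (y axis) at each distance in base pairs (x axis), by orientation, in the 101 bp summit windows of upstream peaks of the mm9 list (top) and in windows of the same length of promoters without a promoter peak (bottom). In the upper panel pairs of the same orientation pile up at 30 to 32 and 40 to 42 bp with few between, and the lower panel shows the same distances with more pairs between them.

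Sec23ip, a binding partner of the COPII vesicle coat, had the highest signal, 463, with 243 in replicate 1 and 221 in replicate 2 (chr7:128744639-128744954 on mm10, as all positions here, summit at -60 bp). Zbtb40, a BTB zinc finger gene, followed with 456, and 242 and 216 in the replicates (chr4:137048693-137049010, -23 bp). 1600012H06Rik had 423, with 220 and 204 (chr17:14943010-14943298, -24 bp), and the start of Wdr27 on the other strand lay within 1 kb of its summit. All 3 were among the 10 highest peaks of each replicate's list.

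Atp5b, the catalytic beta subunit of the mitochondrial ATP synthase, had 401, with 185 and 219 in replicates 1 and 2 (chr10:128082997-128083305, -161 bp). Psmb2, a subunit of the proteasome core, had 392, with 195 and 198 (chr4:126677460-126677738, -30 bp). Eif5, which stimulates GTP hydrolysis by the initiation factor eIF2, had 391, with 199 and 192 (chr12:111537808-111538210, -133 bp). Among all peaks of a replicate's list Atp5b ranked 41 in replicate 1 and 2 in replicate 2, Psmb2 29 and 13, and Eif5 23 and 16.

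Rpl26 of the large ribosomal subunit had 385, with 194 and 186 in replicates 1 and 2 (chr11:68901380-68901680, -35 bp). Cct8, a subunit of the cytosolic chaperonin, had 384, with 190 and 192 (chr16:87495816-87496116, -102 bp). Eif4a3, the helicase of the exon junction complex, had 370, with 203 and 166 (chr11:119300029-119300294, -118 bp). The printed windows of Eif5, Cct8 and Eif4a3 above show their TCTCGCGA copies, and the window of Rpl26 held one as well.

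Tspyl1, of the nucleosome assembly protein family, had 390, Crebzf, a bZIP factor gene, 371, and Fam76a 369. Flad1, the FAD synthase gene, had 367, with 167 in replicate 1 and 199 in replicate 2 (chr3:89411797-89412081, -62 bp). Dbr1, the intron lariat debranching enzyme gene, had 365, with 221 and 147 (chr9:99575601-99575903, -37 bp). Dbr1 ranked 8 in replicate 1 and 76 in replicate 2, and Flad1 the other way, 76 and 12.

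Phf12, whose product belongs to a Sin3 corepressor complex, was the exception in position. Its peak had a signal of 407, with 207 and 200 in replicates 1 and 2, and an offset of -888 bp from the outer 5′ end (chr11:77981675-77982012). The other strongest peaks beyond 500 bp were at Myb, a haematopoietic transcription factor gene (232, -902 bp), Khsrp, an RNA-binding protein gene (210, -614 bp), Tia1, a stress granule RNA-binding protein gene (164, -979 bp), and Pik3r2, a regulatory subunit of PI3 kinase (154, -587 bp). In each of these 5 the replicates' summits lay within 25 bp of the optimal summit. The 136 peaks beyond 500 bp had a median of 25.2, so these 5 stood far above their neighbours. Pik3r2 had 120 in replicate 1, rank 209, and 36.8 in replicate 2, rank 1249.

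Of 21531 protein-coding genes with a known strand, 1566 (7.27%) had an upstream peak, and 25 of the 30 gene lists exceeded that share. The exact 95% interval lay wholly above it in 13 lists, included it in 16 and lay wholly below it in 1. The lists are defined by gene symbols, many are of genes active in most cells, and no set test was made. Lists of genes for other tissues form the other end. None of 39 Hox genes, none of 48 keratin genes and none of 1104 olfactory receptor genes had an upstream peak, which allows shares of up to 7.69%, 6.25% and 0.272% (3 genes of each list). The exact 95% intervals of these lists, drawn in the plot of gene lists, are two-sided and reach 9.03%, 7.4% and 0.334%.

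**Figure D5:**
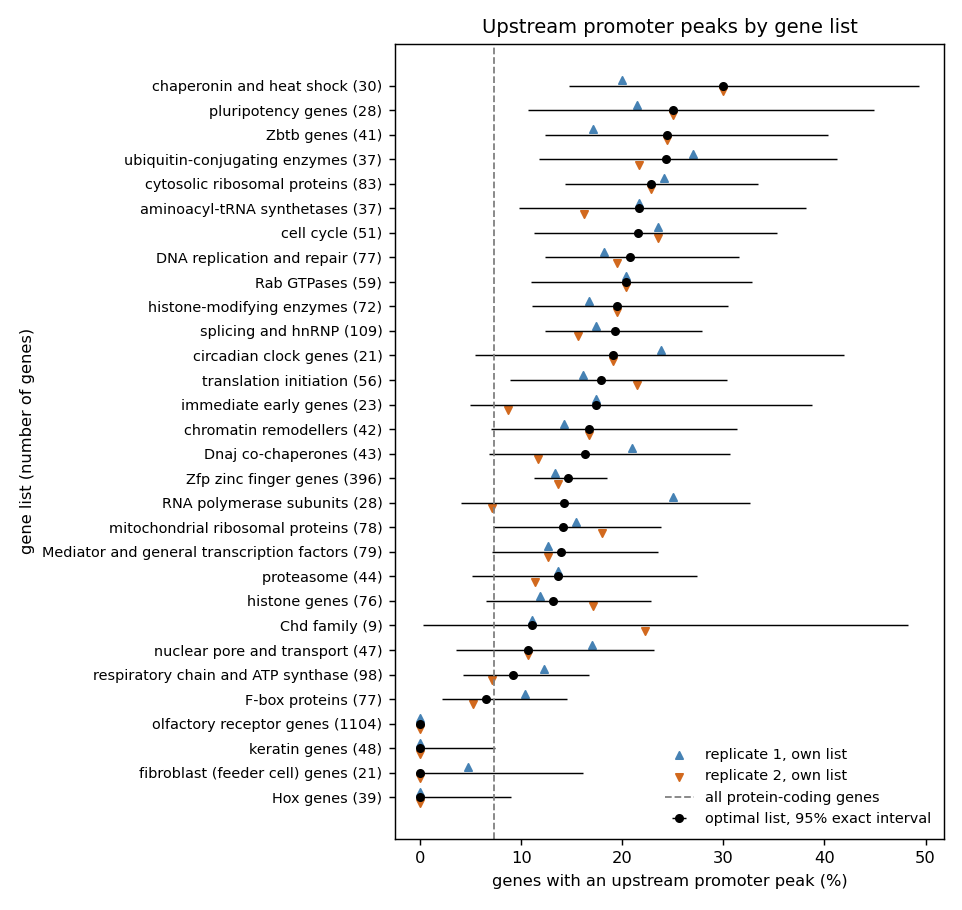
Percentage of genes with an upstream promoter peak (x axis) in each of 30 gene lists (y axis, number of genes in brackets), with the exact 95% interval for the optimal list (black) and the values of each replicate's own strongest peaks (triangles). The dashed line is the 7.27% of all protein-coding genes, and 4 lists at the bottom are at 0 in the optimal list.

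Among 83 cytosolic ribosomal protein genes 19 (22.9%, 14.4 to 33.4) had an upstream peak, led by Rpl26, Rps19 (361) and Rpl23a (284), with none at Fau or Rpl10l. The median signal of these 19 was 113, against 41.9 for all upstream peaks. Replicates alone gave 20 and 19 of the 83 genes. Mitochondrial ribosomal proteins had 11 of 78 (14.1%), led by Mrpl57 (236), Mrps14 (221) and Mrpl37 (117), whereas Mrpl1 and Mrpl10 had no promoter peak. Genes of translation initiation had 10 of 56 (17.9%), led by Eif5, Eif4a3 and Eif2ak3 (225), of which Eif2ak3 encodes the stress kinase PERK rather than an initiation factor. No promoter peak lay at Eif1 or Eif1a. Chaperonin and heat shock genes had 9 of 30 (30%, 14.7 to 49.4), led by Cct8, Cct6a (182) and Hspa5 (129), the chaperone of the endoplasmic reticulum. Cct2 and Cct4 had none, and replicate 1 alone gave 6 of 30 and replicate 2 gave 9.

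Co-chaperones and tRNA charging gave small counts. Dnaj co-chaperones had 7 of 43 (16.3%), with Dnajb5 (78.1), Dnajb3 (54.3) and Dnajc30 (39.0) highest and none at Dnaja3 or Dnaja4. Aminoacyl-tRNA synthetases had 8 of 37 (21.6%), led by Iars (82.6) and Wars (62.2), with none at Aars or Aars2. The intervals of both lists were wide, at 6.81 to 30.7% and 9.82 to 38.2%.

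Among genes of protein turnover and energy supply, ubiquitin-conjugating enzymes had 9 of 37 (24.3%), including Ube2c (189) and Ube2s (133), which work with the anaphase-promoting complex, and none at Ube2a or Ube2cbp. Proteasome genes had 6 of 44 (13.6%), led by Psmb2, Psmd5 (351) and Psmd3 (128), with none at Psma1 or Psma2. F-box proteins had 5 of 77 (6.49%, 2.14 to 14.5), and replicate 1 alone gave 8 (10.4%), above its background of 7.51%, and the conservative list 7 (9.09%). They were led by Fbxw11 (87.6) and Fbxo36 (83.8), with no peak at Fbxl12 or Fbxl15. Respiratory chain and ATP synthase genes had 9 of 98 (9.18%, 4.29 to 16.7) and 12 and 7 in replicates 1 and 2, the latter (7.14%) level with that list's background of 7.15%. They were led by Atp5b, Cox7b (132) and Atp5g1 (107), with none at Atp5a1 or Atp5c1. In that list 30 genes belonged to a divergent protein-coding pair, where the rule leaves out upstream peaks. How many of the 30 had such a peak was not counted.

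RNA synthesis and processing genes were led by the splicing list, where 21 of 109 (19.3%) had an upstream peak, highest at Rbm39 (324), Snrpg (206) and Srsf6 (142), with none at Hnrnpa0. RNA polymerase subunits had 4 of 28 (14.3%), at Polr2e (200), Polr2i (83.5), Polr3b (30.5) and another gene, but 7 in replicate 1 and 2 in replicate 2. Polr1a and Polr1b had no promoter peak. Mediator and general transcription factors had 11 of 79 (13.9%), led by Med24 (167) and Med19 (137), with none at Gtf2b. Nuclear pore and transport genes had 5 of 47 (10.6%), 8 (17.0%) in replicate 1 and 5 in replicate 2, led by the importins Kpna2 (164) and Kpnb1 (118) and the exportin Xpo1 (62.9), with none at Ipo11 or Ipo13.

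Genes of replication and division followed. DNA replication and repair had 16 of 77 (20.8%), led by Cdc45 (199), Rfc5 (82.3) and Mcm3 (74.5), with none at Brca1 or Brca2. Cell cycle genes had 11 of 51 (21.6%), including Cdc20 (197), Cenpa (95) and Ccnb1 (87.6). Aurka and Ccna1 had no promoter peak. Histone genes had 10 of 76 (13.2%), led by H3c1 (81.9), H2bc14 (74.9) and H3c8 (68.7). A further 25 of the 76 belonged to divergent pairs, with or without a peak, and H1f0 and H1f1 had no promoter peak.

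Among chromatin genes, remodellers had 7 of 42 (16.7%, 6.97 to 31.4, an interval that includes the background), led by Chd6 (131), Ruvbl1 (84.8) and Baz1b (82.0), with none at Arid1b or Arid2. Of the 9 Chd family genes only Chd6 had an upstream peak in the optimal list and 1 gene did in replicate 1, but 2 did in replicate 2. Chd6 had signals of 67.5 and 62.9 in replicates 1 and 2 (chr2:161109035-161109233, -38 bp), and Chd1 and Chd2 itself had no promoter peak. Histone-modifying enzymes had 14 of 72 (19.4%), led by Prmt1 (203), Kmt5c (190) and Hdac6 (123), with none at Dot1l or Ehmt1. Zfp genes had 58 of 396 (14.6%, 11.3 to 18.5), led by Zfp566 (353), Zfp317 (328) and Zfp689 (290), with none at Zfp1. Zbtb genes had 10 of 41 (24.4%) in the optimal list but 7 in replicate 1, led by Zbtb40, Zbtb20 (119) and Zbtb3 (117), with none at Zbtb1. Rab GTPases, which direct membrane traffic, had 12 of 59 (20.3%), the same number in each replicate, led by Rab5b (350), Rab33b (261) and Rab6a (206), with none at Rab11a.

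Pluripotency and immediate early genes had median signals of 38.5 and 38.7, well inside the quartiles of all upstream peaks. In the pluripotency list 7 of 28 (25%, 10.7 to 44.9) carried one, among them Klf5 (67.3), Fbxo15 (67.2), Stat3 (41.9), Rif1 (38.5) and Mycn (22.8), with none at Dppa2 or Dppa3. Immediate early genes had 4 of 23, at Klf10 (75), Zfp36 (41.6), Ier5 (35.8) and Ier3 (18.2), but 2 in replicate 2, with none at Atf3 or Btg2. Circadian clock genes had 4 of 21, at Per2 (101), Per1 (82.1), Dbp (77.2) and Cry1 (9.43), with none at Arntl or Bhlhe40.

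The words at the summit were also counted by list, in small numbers. CCAAT was in 59.1% of all upstream windows. Of the 12 lists with at least 6 windows, a minimum chosen after the data were seen, it was above that share in histone genes (7 of 7), cell cycle (7 of 8), respiratory chain (5 of 7), Zfp (30 of 44) and mitochondrial ribosomal protein genes (6 of 10). It was below in splicing (8 of 14), DNA replication (6 of 11), Rab (4 of 8), chromatin remodeller (3 of 6), translation initiation (4 of 10), histone-modifying (2 of 6) and cytosolic ribosomal protein genes (3 of 10). Mitochondrial ribosomal protein, splicing and DNA replication genes were near 59.1%, where 1 window would change the side. No intervals were computed for these counts, so a difference between lists was not tested. TCTCGCGA, in 8.91% of all windows, was in 5 of 10 cytosolic ribosomal protein windows, in 2 of 10 for translation initiation and in 2 of 14 for splicing. Of the other 9 lists, mitochondrial ribosomal protein, respiratory chain, histone-modifying and Rab genes had 1 window with it, Zfp genes 3 and the remaining 4 lists none.

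Some of these promoters faced another start. Beside 126 of the 1566 genes (8.05%, 6.75 to 9.51) a long non-coding RNA gene started on the opposite strand within 1 kb upstream, against 29 of 732 genes with an inside peak only (3.96%, 2.67 to 5.64) and 3.47% of all 20049 genes outside divergent pairs. These are 132 upstream peaks, and in 87 of them (65.9%) the summit lay between both starts. The strongest, looked up after their values were seen, were Cct8 beside B130034C11Rik, Pum3 beside C030016D13Rik (336), Micu2 beside 3110083C13Rik (335) and Cdc5l beside B230354K17Rik (327). The median signal was 45.9 with such a neighbour and 41.8 without, 23.9 against 22.9 in replicate 1 and 25.2 against 21.6 in replicate 2. A further 105 upstream peaks (6.37%) had a protein-coding 5′ end of the opposite strand within 1 kb of the summit. In all 105 that start lay at or past the gene's own 5′ end. The rule leaves out genes with such a start within 1 kb upstream, so this position was largely set in advance. None of the 105 was among the 132.

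Base composition of these promoters was CpG-rich. A RefSeq window of 300 bp was available for 1336 of the 1566 genes. These windows held a median of 21 CpG dinucleotides, the same as genes with an inside peak only, against 11 in promoters without a promoter peak and 13 in all. CCAAT was in 62.9% of these 300 bp windows, in 46.6% of those of genes with an inside peak only and in 39.2% of all. TCTCGCGA was in 7.56%, 9.92% and 1.53%.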

How the data were processed

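CHD2 ChIP-seq of ES-E14 cells was analysed from deposited peak lists of 2 biological replicates, on mm10 and, for 1 list, mm9, per the file headers. The signal per peak is the value the authors deposited, its normalization not stated. The deposited −log10 q-value (a transformed p-value) was read but entered no result. Which aligner, peak caller and filters were used is not given in the sources used here, and read depth is unknown, so a change of caller or control could shift every signal and rank.

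Summits came from the deposited offset in each peak. The 5′ ends are outer ends of 21900 RefSeq protein-coding genes on GRCm38.p6. Strand came from the RefSeq promoter table (17492 genes) or GENCODE M1 by symbol (3649) or synonym (390), and 369 genes without strand were not used. The mm9 list was set against GENCODE M1 and its genome, without mitochondrial peaks. Overlap meant 1 bp or more, and a peak took its replicate values from the highest peak it overlapped among the 300000 of that replicate. A replicate's strongest peaks are its top 8282.

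Motif matches were exact, on both strands, for 14 words, within 50 bp of the summit. The word CGCGAGA, the CCAAT distances and several alternatives were added after seeing the data. Intervals are exact Clopper-Pearson at 95%. Classes, overlaps and motif matching were tested on simulated data. No p-values were computed, because 1 group gives no contrast. The class of peaks and the gene lists were chosen with earlier results of these data known.

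Named genes followed a rule: the 15 strongest upstream peaks, up to 3 strongest and up to 2 without a promoter peak per list, the 3 largest rank differences, the 3 nearest on each side of each limit, the 5 strongest beyond 500 bp and the Chd family. Some genes the rule gives are left out for length. Others are said to be chosen after their values were seen. Tools were Python 3.11.15, pandas 2.3.3, numpy 2.4.6, scipy 1.17.1, pysam 0.24.0 and samtools 1.23.1.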

Additional observations from a re-analysis of the deposited data

How the results depend on the processing

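The number of upstream peaks stayed within 1.5 times of 1648 under every alternative run, from 1139 in the stronger 4141 peaks to 1807 with divergent pairs included. Their share of promoter peaks (57.0%) became 58.1% in the pooled list, 59.6% in the stronger 4141 peaks, 59.6% with a 500 bp window, 54.2% with 2 kb, 62.5% with divergent pairs, 64.4% in the mm9 list, 65.5% with listed RefSeq starts and 53.9% with lncRNA starts counted. In that order the median offset (-94.5 bp) became -88, -80, -84, -108 and -88 bp for the first 5, and -102 bp with listed starts. The median signal (41.9) became 40.7, 60.5, 44.8, 40.1, 43.2 and 71.8 for the first 6, 40.1 with lncRNA starts and 43.7 in the conservative list. Replicates alone gave 21.5 to 22, on the scale of their own lists. The ratio to inside peaks (1.18) became 1.09 in the pooled list, 0.967 in the stronger 4141 peaks and 1.35 with listed starts. It was 1.06 to 1.17 with 1 replicate left out.

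Requiring an overlap of 0.5 of both peaks lowered the conservative share from 83.6% to 81.7%, and leaving out a replicate gave 79.8% to 80.6%. It lowered the recurrence to 73.2% in replicate 1 and 73.7% in replicate 2, and the 16564 strongest peaks of each raised it to 90.8% and 91.3%. CCAAT in the promoter windows (62.9%) became 68.3% where the summit lay in the window, 61.2% with listed starts and 61.6% to 62.2% without a replicate. TCTCGCGA (7.56%) became 9.56%, 8.68% and 7.07% to 7.44%. At the summit CCAAT (59.1%) became 45.5% within 25 bp of 1034 summits, 72.7% within 100 bp of 630, and 60.9% to 61.9% at replicate summits. TCTCGCGA (8.91%) became 7.35%, 7.94% and 9.39% to 9.69%. The signal ratio of peaks with to without CCAAT (1.06) was 0.961 to 1.17 without a replicate. The share with a lncRNA start within 1 kb of the summit (11.2%) was 11.3% to 11.5%. Lists above the background numbered 23 to 26 of 30. Of 90 shares of single lists 55 were unchanged or moved by less than the spread between replicates. The replicates' own shares, which give that spread, are among the 90.

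A fit blocked on replicate was not made. No paired analysis was possible because the series has 1 group and no test between samples. The cause of these changes was not tested. Unknown read depth leaves the precision of single signals unknown.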

Other observations

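A shorter word, CGCGAGA, was searched after the data had been seen, in the upstream summit windows with neither CCAAT nor TCTCGCGA. It is a part of TCGCGAGA, the reverse complement of TCTCGCGA, and so not a separate element. It was in 38 of 326 such windows on mm10 (11.7%, 8.38 to 15.6), against 1.72% of windows of the same length in all promoters and 9 of 574 windows (1.57%) with CCAAT alone. The windows of all promoters include those with TCTCGCGA itself (0.869%), which the 326 leave out. The 38 peaks had a median signal of 135, against 35.3 for the others, with 78.5 against 19.2 in replicate 1 and 54.1 against 18.3 in replicate 2. In the mm9 list it was in 70 of 407 windows (17.2%), with medians of 115 and 49. The printed window of Nupl1 contains it.

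Within the windows that held TCTCGCGA, the 43 with the full palindrome had a median signal of 257 and the others 223. In replicate 1 these were 145 and 120, and in replicate 2 they were 110 and 109.

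Windows with 2 copies of CCAAT had a median signal of 54.8, those with 1 copy 46.0 and those with none 46.7. In replicate 1 the medians were 26.9, 23.5 and 25.5, and in replicate 2 they were 28.7, 23.3 and 22.7.

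CCAAT pairs at summits more than 10 kb from a 5′ end, in the mm9 list, also had the 30 to 32 bp distance in the same orientation (63 of 188 pairs, 33.5%). In opposite orientation 62 of 149 (41.6%, 33.6 to 50) were 35 to 37 bp apart there, against 14 of 137 (10.2%, 5.70 to 16.6) at upstream summits.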
